A study of Homo sapiens with 32 samples.

Results

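Gene levels in HepG2 cells, an established human hepatocellular carcinoma line, were followed from 12 to 24 h of exposure to silver nanoparticles coated with branched polyethylenimine (bPEI). The comparison set the 2 bPEI libraries taken at 24 h against the 3 taken at 12 h, 5 of the 32 libraries of the study, and covered every gene with a mean of at least 5 normalized reads over all libraries. Of 13133 genes 9324 met that rule and 3809 did not. The study exposed the cells to silver at 1.2 ug/mL with a bPEI, polyethylene glycol (PEG) or citrate surface, or kept them in medium without particles (NoNP), and collected lysates after 6, 12 and 24 h. The groups used beside bPEI were NoNP (3 libraries at 12 h, 2 at 24 h), PEG (3 and 3) and citrate (3 and 3). Every library was a whole lysate of 1 cancer line, and the labels do not say whether replicates were separate cultures, so each p-value reflects the spread among these libraries alone, which may be technical.

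Branched polyethylenimine is a polymer rich in amines that is positively charged in water and binds to cell membranes, while PEG is uncharged and citrate is negatively charged. Silver released from particles binds the thiol groups of proteins, and metallothioneins, small cysteine-rich proteins that hold zinc and copper, bind silver ions as well. HepG2 cells divide in culture, secrete albumin, fibrinogen and lipoproteins as hepatocytes do, and their cell cycle and liver genes shift as a culture ages or fills its dish.

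The assay was TempO-Seq, which joins paired short DNA probes on their target RNA and then amplifies, sequences and counts the joined product. The bPEI libraries held 6735072, 6320327 and 4919090 reads at 12 h and 3380945 and 4289326 at 24 h, so that each 12 h library was deeper than each 24 h library. Spearman's rho of the levels over genes was 0.969 to 0.971 within the 12 h group, 0.944 within the 24 h group and 0.921 to 0.932 between the groups. The variance of the log2 levels, averaged over genes, was 0.413 (12 h) and 0.729 (24 h) times the mean of the 12 groups of the study, whereas it was 2.56 times that mean in the 24 h NoNP group. Library bPEI 6 h B stood apart from its group. The 2 NoNP libraries at 24 h were far apart, which cannot show whether A or B is outlying. Libraries bPEI 6 h B and NoNP 24 h B are called outlying below as a name only. Without them 766 genes passed the threshold of the comparison reported here, in place of 314. All 12 listed hepatocyte-like markers were tested, and their summed levels were 308518 to 329034 normalized reads at 12 h and 227553 to 278347 at 24 h.

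With bPEI silver, 163 genes rose and 151 fell from 12 to 24 h, 314 of 9324 tested genes (3.37%, of which 1.75% rose and 1.62% fell; limma, Benjamini-Hochberg adjusted p under 0.05). Metallothionein genes, the vitamin D degrading enzyme gene CYP24A1, the calcium-binding protein genes S100A3 and S100A14 and the survival gene BIRC3 were among the largest rises. The receptor gene PDGFRB, the spindle kinesin gene KIFC1, the kinetochore gene CENPU and the insulin-like growth factor binding protein gene IGFBP1 were among the largest falls. Both rankings took called genes with a mean of at least 50 normalized reads in the higher group. The median size of the 314 differences was 1.32 on the log2(value + 1) scale, on which all differences are given here and on which the change of low genes is understated, and 240 were above 1, that is more than 2-fold. In all 314 genes the 2 libraries at 24 h lay on 1 side of all 3 at 12 h, which was also true of 22.8% (higher) and 23.7% (lower) of all tested genes. The median difference of all tested genes was 0.000221, and 1486 genes had an unadjusted p under 0.05. In bulk lysates fewer cells of a kind and less RNA per cell cannot be told apart.

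The count of calls rested on the number of libraries and on which groups gave the spread. Leaving out 1 of the 5 libraries left 138 (without 12 h replicate A or C), 126 (12 h B), 104 (24 h A) or 76 calls (24 h B), and a fit of the 2 bPEI groups alone gave 1635. Scaling every library to the same total gave 211 higher and 113 lower genes in place of 163 and 151, and edgeR on the recovered reads gave 249 and 151. With the 5 libraries thinned at random to 3380945 reads each, 338 genes passed.

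**Figure D1:**
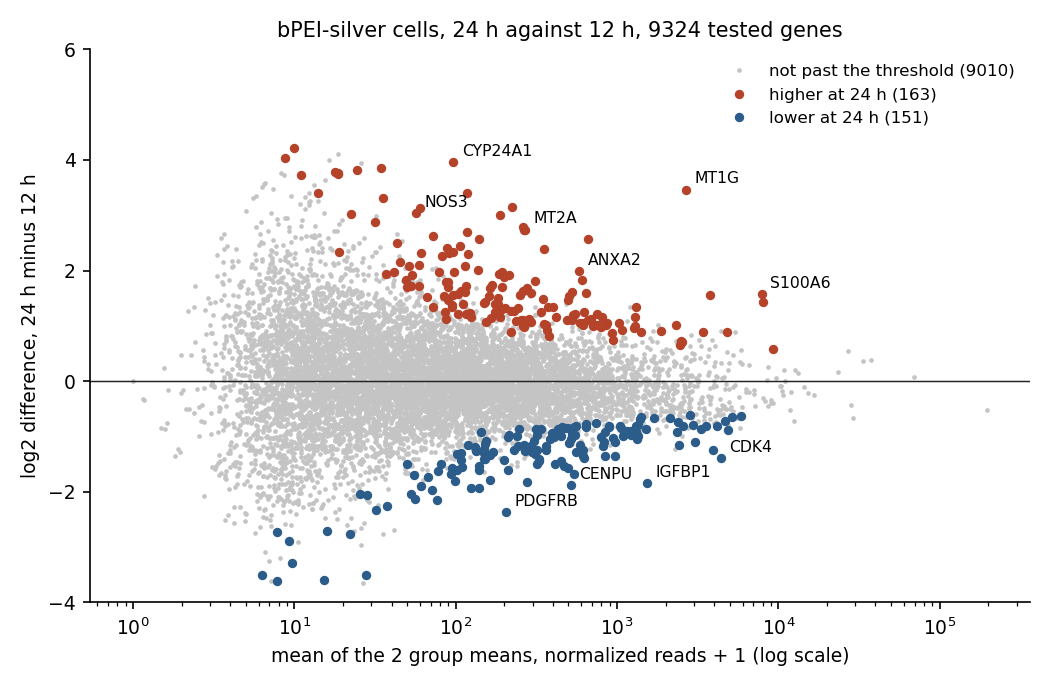
Each point is 1 of the 9324 tested genes, with the mean of the 12 h and 24 h bPEI group means on the x axis (normalized reads plus 1, log scale) and the log2 difference of 24 h minus 12 h on the y axis. The 163 higher genes (red) and 151 lower genes (blue) include MT1G at 3.46 and PDGFRB at -2.37.

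The metallothionein genes MT1G, MT2A, MT1M and MT1E rose. Levels are given in the order of replicates A, B and C. MT1G stood at 384, 463 and 464 normalized reads in the 12 h libraries and at 6069 and 3809.7 at 24 h. Both 24 h libraries lay far above the 12 h range, an 11.3-fold ratio of the means (log2 difference 3.46 ± 0.26 SE, adjusted p = 1.18e-10). At 6 h of bPEI exposure MT1G had been at 2160.0, 1656 and 2137, so the 12 h level was the lowest of the 3 times. MT2A, the most widely expressed metallothionein gene, moved from 60.4, 90.9 and 58.3 to 521 and 409.9 (log2 difference 2.74 ± 0.42, adjusted p = 0.000137). MT1M moved from 50.7, 39.2 and 33.9 to 365 and 306 (log2 difference 3.01, adjusted p = 0.0113). MT1E moved from 6.46, 30.3 and 6.27 to 117 and 90.6 (log2 difference 3.12, adjusted p = 0.0169), with 1 of the 12 h libraries above the other 2. These 4 genes rose in groups that did not overlap, as was so in all 314 called genes. Calls of MT1G and MT2A held in each of 17 alternative fits, that of MT1M was lost without 12 h C, 24 h A or 24 h B, and that of MT1E without 12 h A, 12 h C, 24 h A or 24 h B (adjusted p up to 0.111 and 0.143). Metallothionein transcripts are closely alike, and the labels give no rule for probes that match several of them, so the split of reads among them is uncertain.

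Metallothionein genes are switched on through metal response elements, short sites bound by the zinc-sensing factor MTF1, and the promoter of MT2A is shown because it is the risen gene of the family with an entry and holds 8 matches to them. The window runs from 250 bases before to 50 bases after the gene's start in RefSeq (GRCh38.p14, chr16:56608334-56608633, plus strand), with the 8 matches to TGCNCNC on either strand in capitals, none of which overlaps another of the 5 motifs searched.
MT2A: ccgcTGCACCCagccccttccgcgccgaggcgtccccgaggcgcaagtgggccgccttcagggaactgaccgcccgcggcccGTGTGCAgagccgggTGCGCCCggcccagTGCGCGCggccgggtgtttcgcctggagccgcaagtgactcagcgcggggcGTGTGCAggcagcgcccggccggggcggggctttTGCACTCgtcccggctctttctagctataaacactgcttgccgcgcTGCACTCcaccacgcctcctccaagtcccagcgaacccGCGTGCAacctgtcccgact
At least 1 such match was found in 55.2% of 27305 promoters of the same length, and 4 or more in 2.78%. MT1X and MT1H, the other metallothionein genes with an entry in the table, also held at least 4. MT1G, MT1E and MT1M have no entry and none of their sequence is shown. A match is a description of the letters and shows no binding.

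No other tested gene among the listed metallothioneins and zinc or copper transport genes passed. Of 17 tested genes of the list of metallothioneins and zinc or copper transport 4 rose and 0 fell, and the list's median difference was 0.13. The zinc exporter gene SLC30A1, a target of MTF1 elsewhere, was at 2249.6, 2409.9 and 2224 at 12 h and 1701 and 1755 at 24 h (log2 difference -0.41, adjusted p = 0.411). MTF1 itself was low, at 36.4, 28.3 and 24.5 at 12 h and 1.73 and 18.5 at 24 h (adjusted p = 0.141). The copper importer gene SLC31A1 was at 669.6, 636 and 714 at 12 h and 441 and 390.0 at 24 h (adjusted p = 0.0715). In all 3 genes both 24 h libraries lay under the 12 h range, which was so in 23.7% of all tested genes, while 22.8% lay above it. The metallothionein gene MT1F lay above it, at 0, 6.46 and 1.25 at 12 h and 25.1 and 22.0 at 24 h (log2 difference 3.26, adjusted p = 0.0992), as did CCS, the copper chaperone of superoxide dismutase (44.3, 39.2 and 17.6 at 12 h and 49.4 and 59.7 at 24 h, adjusted p = 0.338).

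CYP24A1, which encodes the enzyme that breaks down active vitamin D, had the largest rise of the genes at a mean of at least 50 in the higher group. Its levels were 7.38, 10.4 and 15.7 at 12 h and 171 and 190.2 at 24 h, 16.2-fold higher (log2 difference 3.95 ± 0.50, adjusted p = 1.49e-05). BIRC3, an inhibitor of apoptosis and a target of NF-kB, went from 25.4, 9.43 and 27.6 to 185 and 239 (log2 difference 3.41 ± 0.56, adjusted p = 0.000342). NOS3, the endothelial form of nitric oxide synthase, went from 6.46, 11.4 and 18.2 to 112 and 86.5 (log2 difference 3.04, adjusted p = 0.00119). In each of these genes the lowest 24 h library was at least 4 times the highest 12 h library, and the calls held in all 17 alternatives.

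Of 12 tested genes of the small calcium-binding S100 proteins 4 rose, 0 fell and 8 did not pass (median difference 0.77). The family was counted after its values were seen, and 1.75% of all tested genes rose. S100A3 went from 41.0, 42.2 and 50.2 to 388 and 409.9 (log2 difference 3.14, adjusted p = 5.44e-05). S100A14 was nearly absent at 12 h (6.46, 8.94 and 0) and reached 44.2 and 79.6 at 24 h (log2 difference 3.84, adjusted p = 0.00226, and 0.101 without 24 h B). Outside the rule for naming genes, and picked after their values were seen, S100A11 went from 762, 673 and 569 to 1632 and 1154 (adjusted p = 0.0408), S100A6 from 4210.1, 3724 and 3851 to 13505 and 10136 (adjusted p = 0.000152) and ANXA2, the gene of annexin A2, a membrane-binding partner of some S100 proteins, from 238, 169 and 308 to 991 and 864 (adjusted p = 1.49e-05). The processed copy ANXA2P2 gave almost the same levels as ANXA2, 246, 255 and 298 at 12 h and 995 and 886 at 24 h, and reads of the 2 may be shared.

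JAK3, CDHR2 and CD3D were also among the 12 largest rises. JAK3, a kinase of cytokine receptors, went from 4.15, 2.48 and 10.7 to 38.1 and 87.9 (adjusted p = 0.0124), and CDHR2, a protocadherin of the microvillus border, from 15.2, 3.48 and 4.39 to 48.5 and 57.7 (adjusted p = 0.0208). CD3D, a chain of the T cell receptor complex, went from 56.3, 76.0 and 63.3 to 421 and 483 (log2 difference 2.78, adjusted p = 0.00174). Of 8 listed leukocyte markers 5 were in the table and 3 were tested, with 0 calls. CSF1R was at 0 in all 5 bPEI libraries, CD14 did not exceed 13.9 in any of them, and the list's summed level of 4914 to 5278 at 12 h and 6202 to 6861 at 24 h was mostly that of lysozyme (LYZ, 5114, 5201 and 4878 at 12 h and 6752 and 6109.7 at 24 h). Calls of JAK3, CDHR2 and CD3D were lost without 24 h B (adjusted p = 0.271, 0.214 and 0.0507). The call of JAK3 was also lost without 12 h A or B, and that of CDHR2 without 12 h B, 12 h C or 24 h A.

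**Figure D2:**
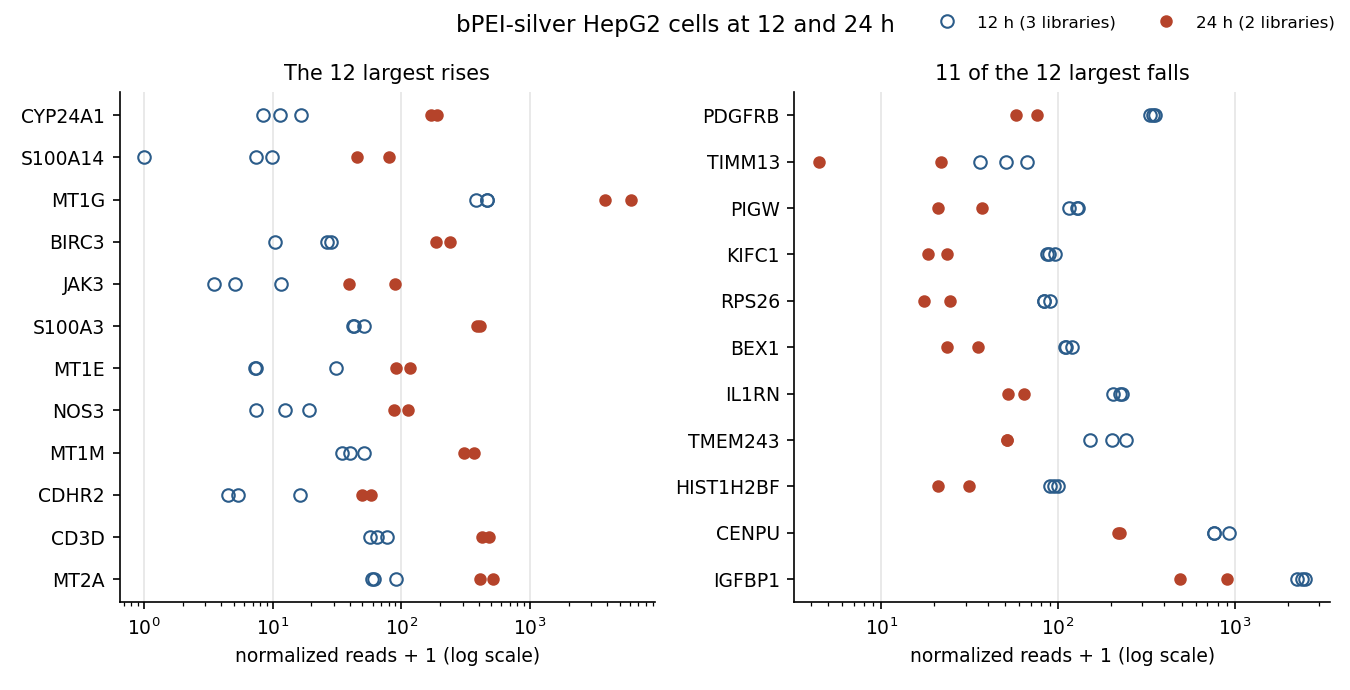
Normalized reads plus 1 (log scale) of the 12 largest rises (left) and 11 of the 12 largest falls (right) in each bPEI library, open circles for the 3 libraries at 12 h and filled circles for the 2 at 24 h. The groups are apart in every gene shown because the choice of these genes required it. MT1G had a 12 h mean of 437 and a 24 h mean of 4939, and PDGFRB had 343 and 66.3.

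PDGFRB, a receptor for platelet-derived growth factor, had the largest fall of the genes at a mean of at least 50 in the higher group. It stood at 344, 331 and 355 at 12 h and 57.1 and 75.5 at 24 h, 5.18-fold lower (log2 difference -2.37 ± 0.36, adjusted p = 0.00012), and its call held in all 17 alternatives. PDGFRB is also a marker of fibroblasts. COL1A1, COL1A2, COL3A1 and PDGFRA, the other 4 of 8 listed markers in the table, were at 0 to 4.33 in the bPEI libraries of both times. Of 6 endothelial markers 1 was in the table, PECAM1, at 8.24 to 11.3. CENPU, a protein of the inner kinetochore, went from 761, 924 and 759 to 223 and 218 (log2 difference -1.88 ± 0.26, adjusted p = 4.24e-05). TMEM243, a membrane protein gene, went from 200.2, 241 and 149.8 to 50.2 and 50.1 (adjusted p = 0.000892). Calls held in all alternatives for 9 of the 24 largest rises and falls, CENPU and TMEM243 among them.

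IGFBP1, a liver-made binding protein that sequesters insulin-like growth factors, fell from 2235, 2509 and 2412 to 900.5 and 492 (log2 difference -1.84 ± 0.36, adjusted p = 0.00227, and 0.16 without 24 h B). IL1RN, the secreted antagonist of the interleukin-1 receptor, fell from 204, 222 and 229 to 63.2 and 50.8 (adjusted p = 0.0184). RPS26, a ribosomal protein gene with many processed copies in the genome, fell from 82.1, 88.9 and 82.1 to 23.4 and 16.5 (adjusted p = 0.00811, and 0.176 without 24 h B). In these 3 genes both 24 h libraries lay well under the 12 h range, and lying under it was required of the 12 largest falls. TIMM13 (import into mitochondria), PIGW (synthesis of membrane anchors), BEX1 (a neuronal adaptor gene), KIFC1 (a spindle kinesin) and the histone gene HIST1H2BF were also among the 12 largest falls, with adjusted p from 0.0255 to 0.0448. The call of HIST1H2BF was lost in the fit with a replicate block. Leaving out 1 library ended the calls of IL1RN, PIGW, BEX1, KIFC1 and HIST1H2BF whichever library it was, and that of TIMM13 except without 24 h A (adjusted p up to 0.228, 0.367, 0.266, 0.194, 0.305 and 0.66 over all alternatives).

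Genes of cell division had lower levels at 24 h, and 4 of the mitosis list passed the test. Of 24 tested genes of the G2/M and mitosis list, 4 fell and 0 rose, beside 1.62% and 1.75% of all tested genes. All 24 differences were below 0. In 21 genes the 24 h libraries lay under every 12 h library (23.7% of all tested genes did so). The list's median difference was -1.36, against 0.000221 for all genes. KIF11, the motor that separates spindle poles, stood at 202, 238 and 181 at 12 h and 51.1 and 88.6 at 24 h (log2 difference -1.60 ± 0.33, adjusted p = 0.00343). AURKA, the centrosomal aurora kinase, went from 183, 139.5 and 133 to 37.2 and 63.9 (adjusted p = 0.00776) and AURKB, the kinase of the chromosomal passenger complex, from 125, 93.4 and 127 to 26.8 and 48.7 (adjusted p = 0.0232). KIF2C, a kinesin that takes microtubules apart at the kinetochore, went from 502, 452 and 470.2 to 126 and 240.3 (adjusted p = 0.0175). In each, 24 h replicate A was lower than replicate B, and without replicate A none of the 4 calls remained (adjusted p = 0.14, 0.188, 0.305 and 0.324). The count was also lower without 12 h A (1 call) or 12 h C (2), and it was 19 where the 2 bPEI groups alone gave the spread.

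Replication genes gave smaller differences. In the G1/S and DNA replication list, of 26 tested genes, 3 fell and 0 rose (1.62% and 1.75% of all tested genes). There 21 differences were below 0, and the median was -0.56. RRM2, the regulated subunit of ribonucleotide reductase, went from 386, 499 and 458 to 203 and 174 (log2 difference -1.24, adjusted p = 0.0232). The helicase subunit genes MCM7 and MCM2 went from 221, 247 and 156 to 107 and 70.7 and from 11.1, 14.4 and 20.7 to 1.73 and 0.687 (adjusted p = 0.0266 and 0.0398). All 3 calls were lost without 24 h A, without 24 h B and without at least 2 of the 12 h libraries (adjusted p up to 0.261, 0.403 and 0.342). The call of MCM2 was also lost in the fit with a replicate block. CDK4, the kinase of the G1 phase, picked after its values were seen, fell from 6149, 6619.8 and 6394 to 2235 and 2659 (adjusted p = 0.00113). Among 21 tested p53 target genes 0 passed (median 0.04). In the list of growth arrest and quiescence TXNIP rose (30.9, 34.3 and 23.2 to 129.9 and 172, adjusted p = 0.0272) and TOB1 fell (444, 385 and 390.0 to 177 and 183, adjusted p = 0.0417), both calls being lost when any 1 of the 5 libraries was left out, and that of TOB1 under equal library totals too (adjusted p up to 0.287 and 0.251).

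Promoters of late cell cycle genes are known for a pair of sites, the CCAAT box and the cell cycle genes homology region (CHR), through which a repressor complex acts in resting cells. The promoter of KIF11 (RefSeq, GRCh38.p14, chr10:92592880-92593179, plus strand) is shown because it is the fallen gene of the list that holds both, with the matches to CCAAT and TTTGAA, both on the opposite strand, in capitals.
KIF11: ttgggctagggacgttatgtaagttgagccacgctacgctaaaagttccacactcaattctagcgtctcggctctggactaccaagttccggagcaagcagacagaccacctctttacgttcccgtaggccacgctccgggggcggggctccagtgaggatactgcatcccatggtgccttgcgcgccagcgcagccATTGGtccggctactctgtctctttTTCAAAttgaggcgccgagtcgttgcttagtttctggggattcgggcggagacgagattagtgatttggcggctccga
The promoter of AURKB (chr17:8210176-8210475, minus strand) is shown beside it because it held a match to CCAAT, on the opposite strand and in capitals, and none to TTTGAA.
AURKB: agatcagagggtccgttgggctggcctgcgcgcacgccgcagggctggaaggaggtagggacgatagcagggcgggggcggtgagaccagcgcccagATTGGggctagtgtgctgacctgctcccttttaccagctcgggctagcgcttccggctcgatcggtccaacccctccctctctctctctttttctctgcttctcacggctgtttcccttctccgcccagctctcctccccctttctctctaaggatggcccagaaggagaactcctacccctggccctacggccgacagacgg
Of 20 tested genes of the G2/M list with an entry, 12 (60.0%) held TTTGAA on either strand and 16 (80%) held CCAAT, against 9.92% and 37.7% of 7751 tested genes with an entry. Over all 27305 promoters the shares were 15.4% and 35.7%. The 2 motifs do not overlap one another in KIF11. KIF2C held neither, AURKA has no entry, and among the 3 fallen genes with one the share with TTTGAA was 33.3%.

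Genes of secreted liver proteins changed in both directions. Of 15 tested genes of the acute phase list, in which LEAP2 was placed, 2 rose and 2 fell (median 0.20). The shares of all tested genes were 1.75% and 1.62%. SERPINA3, the inhibitor of chymotrypsin-like proteases, rose from 77.5, 93.4 and 81.5 to 371 and 259.5 (log2 difference 1.87 ± 0.28, adjusted p = 0.000108), a call held in all 17 alternatives. LEAP2, a liver peptide that blocks the ghrelin receptor, rose from 68.7, 75.5 and 99.7 to 232 and 207 (log2 difference 1.44, adjusted p = 0.0459, up to 0.243 when 1 library was left out, whichever it was). The orosomucoid genes ORM1 and ORM2, near-identical neighbours whose reads may be shared, fell from 406, 428 and 379 to 210.4 and 152 and from 1056, 1126 and 1177 to 636 and 423 (adjusted p = 0.0113 and 0.0106). Both calls were lost without 24 h B, and that of ORM1 also without 12 h B. The fibrinogen chain gene FGG was at 3746, 4021 and 3985 at 12 h and 5725 and 5554 at 24 h, higher in both 24 h libraries with an adjusted p of 0.0942.

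Albumin (ALB), the most abundant transcript, was at 232810.0, 241767 and 219508 at 12 h and 180954 and 143134 at 24 h (log2 difference -0.52, adjusted p = 0.104). RBP4, the carrier of retinol, was the 1 of 13 tested carrier protein genes that passed, falling from 1036, 1095 and 1034 to 556 and 496 (adjusted p = 0.00251, and 0.0847 without 24 h B). Of 12 tested apolipoprotein and lipoprotein genes LIPC, the hepatic lipase, rose from 105, 106 and 125 to 184 and 344 (adjusted p = 0.0254, up to 0.517 without 24 h B or any of the 12 h libraries). In coagulation and fibrinolysis KNG1, the kininogen gene, fell from 28.1, 20.9 and 30.7 to 0 and 4.12 (adjusted p = 0.0159). The call of KNG1 was lost without 12 h A, 12 h C or 24 h A (adjusted p up to 0.313). Of 17 complement genes and 15 hepatocyte transcription factor genes tested 0 passed, with medians of 0.61 and 0.23.

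Of 7 tested genes of bile acid handling 2 rose and 2 fell (median 0.33), beside 1.75% and 1.62% of all tested genes. The export pump genes rose, ABCC3 of the basolateral membrane from 34.1, 42.7 and 38.9 to 153 and 156 (log2 difference 1.98 ± 0.38, adjusted p = 0.00182) and ABCC2 of the canalicular membrane from 709, 610.3 and 663 to 1110.0 and 1299 (adjusted p = 0.0142). BAAT, the enzyme that couples bile acids to glycine or taurine, fell from 705, 752 and 767 to 200.01 and 312 (log2 difference -1.56, adjusted p = 0.00227), and SLC51B, a subunit of a further export carrier, from 118, 80.4 and 110.3 to 33.8 and 26.1 (adjusted p = 0.0118). The call of ABCC3 held in all alternatives, that of BAAT was lost without 24 h A (0.0993), and those of ABCC2 and SLC51B were lost without 24 h A, without 24 h B and without 2 of the 12 h libraries (adjusted p up to 0.237 and 0.194).

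The NF-kB target and chemokine list had the highest median of the lists with at least 8 tested members, 1.01. Its differences were above 0 in 14 of 16 genes (median of all tested genes 0.000221). In it 2 genes rose and 1 fell, beside 1.75% and 1.62% of all tested genes. BIRC3 is given above. ICAM1, an adhesion molecule for leukocytes, rose from 73.8, 74.5 and 74.6 to 408 and 212 (log2 difference 1.97 ± 0.34, adjusted p = 0.000597, and 0.0603 without 24 h A). CCL20, a chemokine, went the other way, from 3444, 3367 and 3048 to 1974 and 1096 (adjusted p = 0.0444), a call that did not hold under equal library totals, quantile normalization or edgeR, nor without 24 h B or any of the 12 h libraries (adjusted p up to 0.554). Of 19 interferon-inducible genes 2 rose and 0 fell (median 0.60), the guanylate-binding protein genes GBP1 (42.0, 61.6 and 50.2 to 164 and 142, adjusted p = 0.00723) and GBP2 (26.7, 37.7 and 33.2 to 129.9 and 68.0, adjusted p = 0.0263). Both calls were lost without 24 h A, that of GBP1 also without 24 h B and that of GBP2 also without any of the 12 h libraries (adjusted p up to 0.0951 and 0.359).

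Among 21 tested targets of YAP and TGF beta (median 0.21) genes changed in both directions. ANKRD1, a YAP target, rose from 1644, 2034 and 2047 to 6248 and 4963 (adjusted p = 0.0344), a call lost in the fit with a replicate block. TIMP1, an inhibitor of matrix proteases, rose from 823, 823 and 749.8 to 1898 and 1679 (adjusted p = 0.0339). SKIL, a feedback repressor of TGF beta signals, fell from 429.8, 438 and 382 to 180.1 and 163 (log2 difference -1.27 ± 0.25, adjusted p = 0.00211) and TGFBI, a matrix protein, from 1359, 1314 and 1399 to 917 and 625 (adjusted p = 0.0148). Among 22 tested keratin and actin genes (median 0.59) tropomyosin (TPM1) rose from 280.4, 250.3 and 327 to 384 and 988 (adjusted p = 0.0422) with its 24 h libraries far apart. Calls of ANKRD1 and TIMP1 were lost when any 1 library was left out, that of ANKRD1 also with no filter on low values, that of SKIL without 24 h B, that of TGFBI without 12 h A, 12 h C or 24 h B, and that of TPM1 unless the library left out was 24 h A (adjusted p up to 0.229, 0.215, 0.059, 0.405 and 0.771).

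Lists of stress responses had few calls or none, beside 3.37% of all tested genes called. At that share a list of this size can hold 0 calls, so a count of 0 says little about the response. The unfolded protein response (19 tested, median -0.49), the integrated stress response (22, median -0.19), heat shock and chaperones (19, median -0.33), aminoacyl-tRNA synthetases (18, median 0.15), the proteasome (22, median -0.19), lysosome and autophagy (25, median -0.17) and the respiratory chain (35, median -0.06) had 0 genes past the threshold. Of 23 NRF2 targets ABCC2 and the ferritin light chain gene FTL rose (FTL 1863, 1836 and 1932 to 3465 and 2752, adjusted p = 0.0219, up to 0.277 when 1 library was left out). HMOX1, the heme oxygenase induced by oxidants, was at 112, 111 and 130.4 at 12 h and 58.0 and 48.7 at 24 h, lower in both 24 h libraries with an adjusted p of 0.0804. Of 19 antioxidant enzymes catalase (CAT) rose from 808, 992 and 814 to 1725 and 1652 (adjusted p = 0.0152, up to 0.141 without 12 h A, 12 h C, 24 h A or 24 h B). Cytochrome P450 and conjugation (12 tested, median 0.41), fatty acid synthesis (10, median 0.21) and gluconeogenesis (8, median 0.67) had 0 calls.

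Further lists held 1 call in a direction. Among 22 genes of glycolysis and hypoxia (median -0.16) NDRG1 rose (61.8, 78.0 and 139.8 to 263 and 317, adjusted p = 0.00119) and the collagen hydroxylase gene P4HA1 fell (412, 393 and 432 to 212 and 178, adjusted p = 0.0138). The phosphatase gene DUSP5, 1 of 12 feedback inhibitors of ERK (median 0.39), rose from 21.7, 39.2 and 28.8 to 265 and 141 (log2 difference 2.69 ± 0.59, adjusted p = 0.00689). Of 16 immediate early genes (median -0.30) IER2 rose (137, 81.4 and 92.2 to 215 and 299, adjusted p = 0.0353), and of 13 genes of fatty acid oxidation (median 0.03) ACADVL rose (30.0, 35.8 and 55.8 to 81.4 and 124, adjusted p = 0.0285). Of 21 cholesterol genes (median -0.20) SC5D, an enzyme of sterol synthesis, fell (903, 857 and 857 to 414 and 282, adjusted p = 0.0226). Of 19 apoptosis regulators (median 0.22) BIRC3 rose and 0 fell. Among ribosomal genes 51 of 63 cytosolic ribosomal protein genes and 14 of 17 ribosome biogenesis genes had differences below 0 (medians -0.35 and -0.37), with 1 call in each, RPS6 (3887, 3703 and 3657 to 2293 and 2018, adjusted p = 0.0321) and NOP58 (892, 924 and 957 to 566 and 526, adjusted p = 0.0254). Both of these calls were lost under equal library totals and under quantile normalization. RPS26, above, is not a member of the ribosomal list. MRPS18A was the 1 call among 26 mitochondrial ribosomal proteins (706, 686 and 719 to 435 and 371, adjusted p = 0.0229, list median -0.23). Apart from BIRC3, each call named here was lost without at least 1 of the 2 libraries of 24 h (adjusted p up to 0.0507 for NDRG1, 0.223 for P4HA1, 0.142 for DUSP5, 0.382 for IER2, 0.393 for ACADVL, 0.345 for SC5D, 0.32 for RPS6, 0.254 for NOP58 and 0.291 for MRPS18A).

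**Figure D3:**
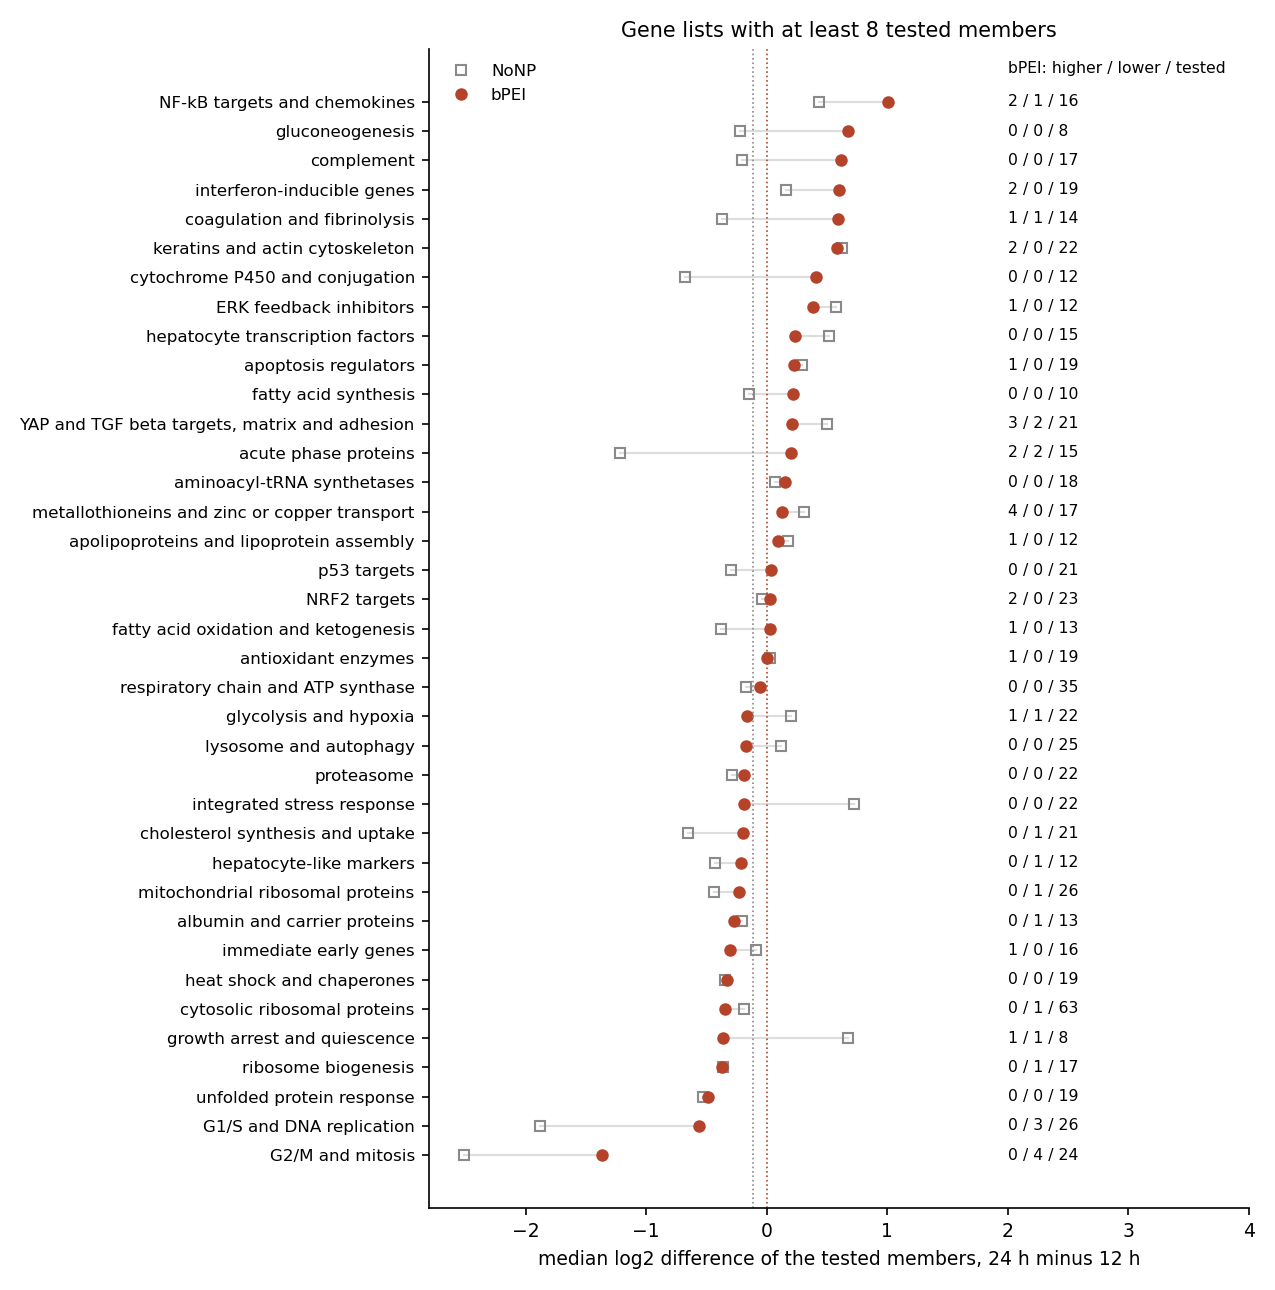
Median log2 difference, 24 h minus 12 h, of the tested members of each list with at least 8 of them, in bPEI cells (filled circles) and in NoNP cells (open squares), with dotted lines at the medians of all tested genes and the numbers of bPEI genes higher, lower and tested at the right. The mitosis list is lowest in both, at -1.36 with bPEI and -2.51 without particles, while the acute phase list is at 0.20 and -1.22.

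Most of the change from 12 to 24 h with bPEI silver was in the same direction as the change in cells without particles. Of the 314 called genes 301 (95.9%) had a NoNP difference of the same sign, against 68.1% of all tested genes, and the median NoNP difference was 1.5 for the 163 risen genes and -1.12 for the 151 fallen genes, where the bPEI medians were 1.49 and -1.18. The bPEI and NoNP libraries are different samples, and Pearson's r of their differences over 9324 genes was 0.461, with 0.558 for PEG and 0.465 for citrate. Genes are not independent replicates, and all these libraries share 1 platform and 1 normalization. MT1G, for example, stood at 213, 189.7 and 184 at 12 h and 3438 and 4968 at 24 h in NoNP cells, and MT2A at 31.3, 38.2 and 25.4 at 12 h and 1449 and 633 at 24 h. Of the 314 genes 2 differed between bPEI and NoNP at 12 h and 47 at 24 h (limma adjusted p under 0.05 in each comparison). The shares over all tested genes are not given for these comparisons. The 314 genes were also chosen on the same bPEI libraries, so neither count is a result about these genes. MT1G was higher with bPEI at 12 h (adjusted p = 0.0461), and its courses did not differ by test (difference of the log2 differences -0.94, adjusted p = 0.368).

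A test of the difference between the courses gave 32 genes past the threshold (0.343%), 24 with a more positive change with bPEI (0.257%) and 8 with a more negative one (0.0858%). The median of this difference over all genes was 0.11, and 0.22 with equal library totals. Of the 32 genes 25 were not called from 12 to 24 h with bPEI. At an unadjusted p under 0.05 there were 931 genes. The NoNP course rests on 2 libraries at 24 h that were far apart: without NoNP 24 h A the count was 810 and without NoNP 24 h B it was 79. It was 13 to 15 without 1 of the bPEI libraries and 14 to 20 without 1 of the 12 h NoNP libraries.

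Fibrinogen and haptoglobin genes had a more positive change with bPEI. FGG was at 2799.9, 2976 and 3150.4 at 12 h and 911 and 946 at 24 h in NoNP cells, and with bPEI both 24 h libraries lay above the 12 h range (difference of the log2 differences 2.20 ± 0.25 SE, adjusted p = 3.02e-06). FGB was at 1643, 1822 and 1735 at 12 h and 1789 and 1433 at 24 h with bPEI and at 1162, 1103 and 1263 at 12 h and 298 and 215 at 24 h without particles (difference 2.09 ± 0.29, adjusted p = 7.95e-05). HP, the haptoglobin gene, was at 664, 638 and 646 at 12 h and 707 and 763 at 24 h with bPEI and at 694, 555 and 758 at 12 h and 170.1 and 161 at 24 h without (difference 2.17 ± 0.27, adjusted p = 1.71e-05). The bPEI changes of FGB and HP did not pass (adjusted p = 0.859 and 0.734). In all 3 genes the NoNP libraries at 24 h lay under every other bPEI or NoNP library of 12 or 24 h. The calls of all 3 held in all 22 alternatives.

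LEAP2 rose with bPEI and was at 26.7, 36.5 and 51.6 at 12 h and 3.21 and 8.70 at 24 h without particles (difference 4.01 ± 0.59, adjusted p = 0.000164). FGA, the third fibrinogen chain, was at 526, 786 and 732 at 12 h and 1445 and 2016 at 24 h with bPEI and at 524, 699.9 and 514 at 12 h and 164 and 63.1 at 24 h without (difference 3.83, adjusted p = 0.0348). Of the 15 tested genes of the acute phase list these 5 gave a more positive change with bPEI and 0 a more negative one. The list's median difference was 0.20 with bPEI, 0.09 with PEG, 0.28 with citrate and -1.22 without particles. The cause was not tested. G6PC, the last enzyme of glucose release, was at 60.4, 66.0 and 70.8 at 12 h and 69.3 and 100.2 at 24 h with bPEI and at 87.6, 73.5 and 80.5 at 12 h and 0 and 6.52 at 24 h without (difference 5.23 ± 0.90, adjusted p = 0.00197). Calls of LEAP2 and G6PC were lost with voom weights (0.271 and 0.188), and that of G6PC in a fit of the compared groups alone (0.0694). The bPEI change of G6PC itself had an adjusted p of 0.866. FGA lost its call without any of the bPEI libraries, without any of the 12 h NoNP libraries, without NoNP 24 h B, with no filter, with quantile normalization and with voom weights (adjusted p up to 0.349). FGA was chosen after its values were seen.

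GDF15 gave the opposite difference. GDF15, a cytokine released by stressed cells, was at 5572, 5140.1 and 5343 at 12 h and 6599 and 3702 at 24 h with bPEI and went from 3929.6, 3997 and 5172 to 22922 and 22306 without particles (difference -2.50 ± 0.39, adjusted p = 0.00061). Its 24 h NoNP libraries lay above every bPEI library of 12 or 24 h, and the call held in all 22 alternatives. IGFBP1 was at 1149, 1325 and 1705 at 12 h and 2556 and 1246 at 24 h without particles, with the 12 h and 24 h libraries overlapping (difference -2.22, adjusted p = 0.0383). That call was lost in 10 of 22 alternatives, among them those without any of the 12 h bPEI libraries, bPEI 24 h B, NoNP 12 h A or NoNP 12 h B (adjusted p up to 0.462).

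A few genes of replication and mitosis had a more positive change with bPEI as well. GINS2, a subunit of the replicative helicase, was at 115, 148 and 124 at 12 h and 81.4 and 55.6 at 24 h with bPEI and at 96.8, 98.2 and 118 at 12 h and 3.21 and 4.35 at 24 h without particles (difference 3.55 ± 0.51, adjusted p = 0.000119). NCAPG, a condensin subunit, was at 76.6, 85.9 and 69.6 at 12 h and 26.8 and 26.8 at 24 h with bPEI and 87.0, 111 and 53.4 at 12 h and 0 and 4.35 at 24 h without (difference 3.64, adjusted p = 0.00425). Both calls were lost with voom weights (0.337 and 0.361), and that of NCAPG also in a fit of the compared groups alone (0.204). In the mitosis list 1 of 24 genes passed this test, HMMR, and in the replication list 1 of 26, GINS2, beside list medians without particles of -2.51 and -1.88. HMMR, a spindle protein gene chosen after its values were seen, was at 358, 461 and 448 at 12 h and 256 and 319 at 24 h with bPEI and 259, 376 and 378 at 12 h and 43.3 and 65.2 at 24 h without (difference 2.07, adjusted p = 0.0434), a call lost in 15 of 22 alternatives, among them a pseudocount of 5, no filter, quantile normalization, voom weights and every fit without 1 of the bPEI or 12 h NoNP libraries (up to 0.389). EIF4E2, a cap-binding protein, was at 132, 135 and 135 at 12 h and 188 and 117 at 24 h with bPEI and 137, 134 and 136 at 12 h and 36.9 and 26.1 at 24 h without (difference 2.24, adjusted p = 0.00374). That call was lost with voom weights (0.106), 1 variance weight per group (0.0906), a fit of the compared groups alone (0.0867) and without bPEI 24 h A (0.0682).

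**Figure D4:**
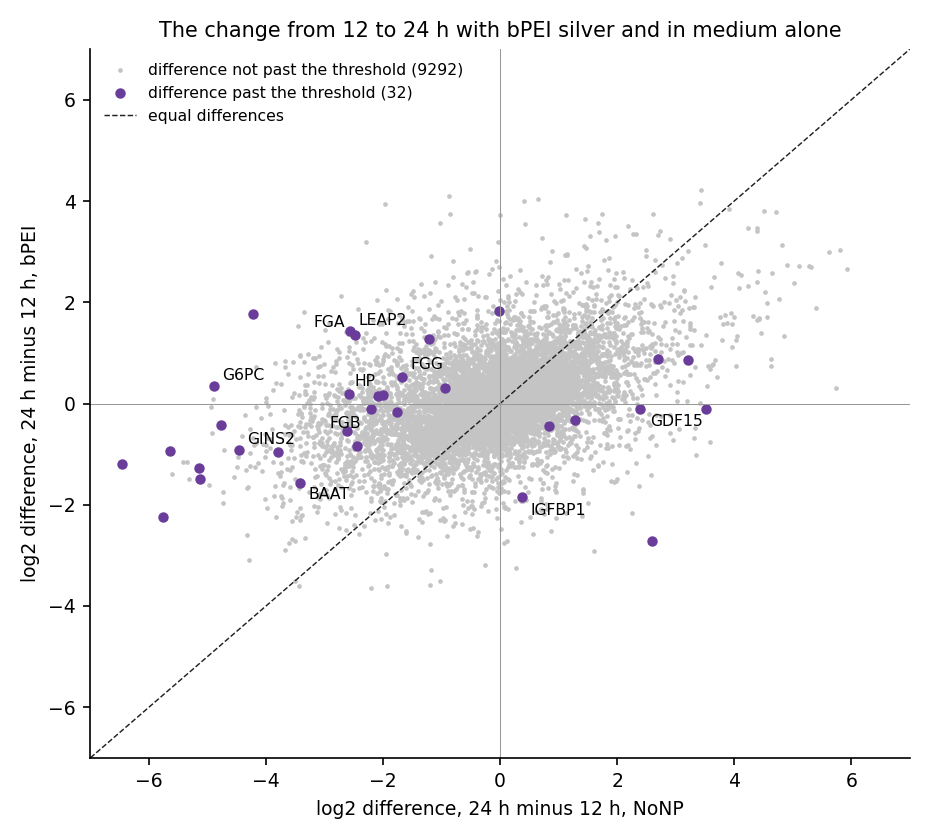
Log2 difference of 24 h minus 12 h in NoNP cells (x axis) and bPEI cells (y axis) for 9324 genes, with the 32 genes whose difference between the courses passed the threshold in purple and a dashed line of equal differences. FGG lies at -1.68 and 0.53, and GDF15 at 2.38 and -0.11.

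Against the other coatings 0 genes passed. The bPEI course minus the PEG course gave 0 calls (0%) and 290 genes at an unadjusted p under 0.05, and minus the citrate course 0 calls (0%) and 520, by limma, with 0 by edgeR in both. FGG was among the 5 genes with the smallest p against PEG, at 3087, 3308 and 2526 at 12 h and 1683, 2292 and 2748 at 24 h with PEG (difference 0.95, 95% interval 0.47 to 1.43, adjusted p = 0.621). CST4, a salivary-type cystatin that inhibits cysteine proteases, was at 7.38, 4.97 and 11.3 at 12 h and 20.8 and 8.24 at 24 h with bPEI and at 4.47, 1.09 and 0 at 12 h and 103, 161 and 85.0 at 24 h with PEG (difference -4.91, 95% interval -7.27 to -2.55, adjusted p = 0.621). Its relative CST2 was at 29.1, 10.9 and 31.3 at 12 h and 75.3 and 45.3 at 24 h with bPEI, 51.4, 13.1 and 14.4 at 12 h and 583, 664 and 2576 at 24 h with citrate and 233, 78.0 and 116 at 12 h and 2633 and 3110.2 at 24 h without particles (difference from citrate -4.08, 95% interval -5.99 to -2.18, adjusted p = 0.453). Both bPEI libraries at 24 h lay outside the range of the other coating at 24 h in these 3 genes. No adjusted p passed, so the intervals describe values and are not calls. Of 4 tested type 2 cystatins 0 passed from 12 to 24 h with bPEI. Their median difference was 0.53 with bPEI, 4.55 without particles, 4.55 with PEG and 4.73 with citrate. In the limma test against the NoNP course 0 of the 4 passed either (adjusted p = 0.25 for CST2 and 0.222 for CST4). Cystatin transcripts are alike, and their reads may be shared.

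The other genes among the 5 with the smallest p in each comparison included some at or near 0 in 1 group, whose differences depend on the pseudocount. HSPA6, an inducible chaperone, was at 0, 5.46 and 0 at 12 h and 6.93 and 0 at 24 h with bPEI and at 52.2, 41.1 and 43.1 at 12 h and 0, 0 and 0 at 24 h with citrate (adjusted p = 0.453). IL1RL1, the receptor of interleukin-33, was at 0, 0 and 0 at 12 h and 0.866 and 4.81 at 24 h with bPEI and at 40.3, 90.8 and 102 at 12 h and 36.7, 0 and 3.33 at 24 h with PEG (adjusted p = 0.621). GNA12, a G protein subunit, was at 36.4, 46.2 and 47.0 at 12 h and 62.3 and 36.4 at 24 h with bPEI and at 67.8, 88.2 and 49.7 at 12 h and 10.4, 12.6 and 9.84 at 24 h with citrate (adjusted p = 0.453). TCEA1 (transcript elongation) and UBTD1 against PEG had differences of -2.03 and -2.83, and SAMD15 and RNF219 against citrate of 4.11 and 3.76. Each of these 4 had an adjusted p of at least 0.457.

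**Figure D5:**
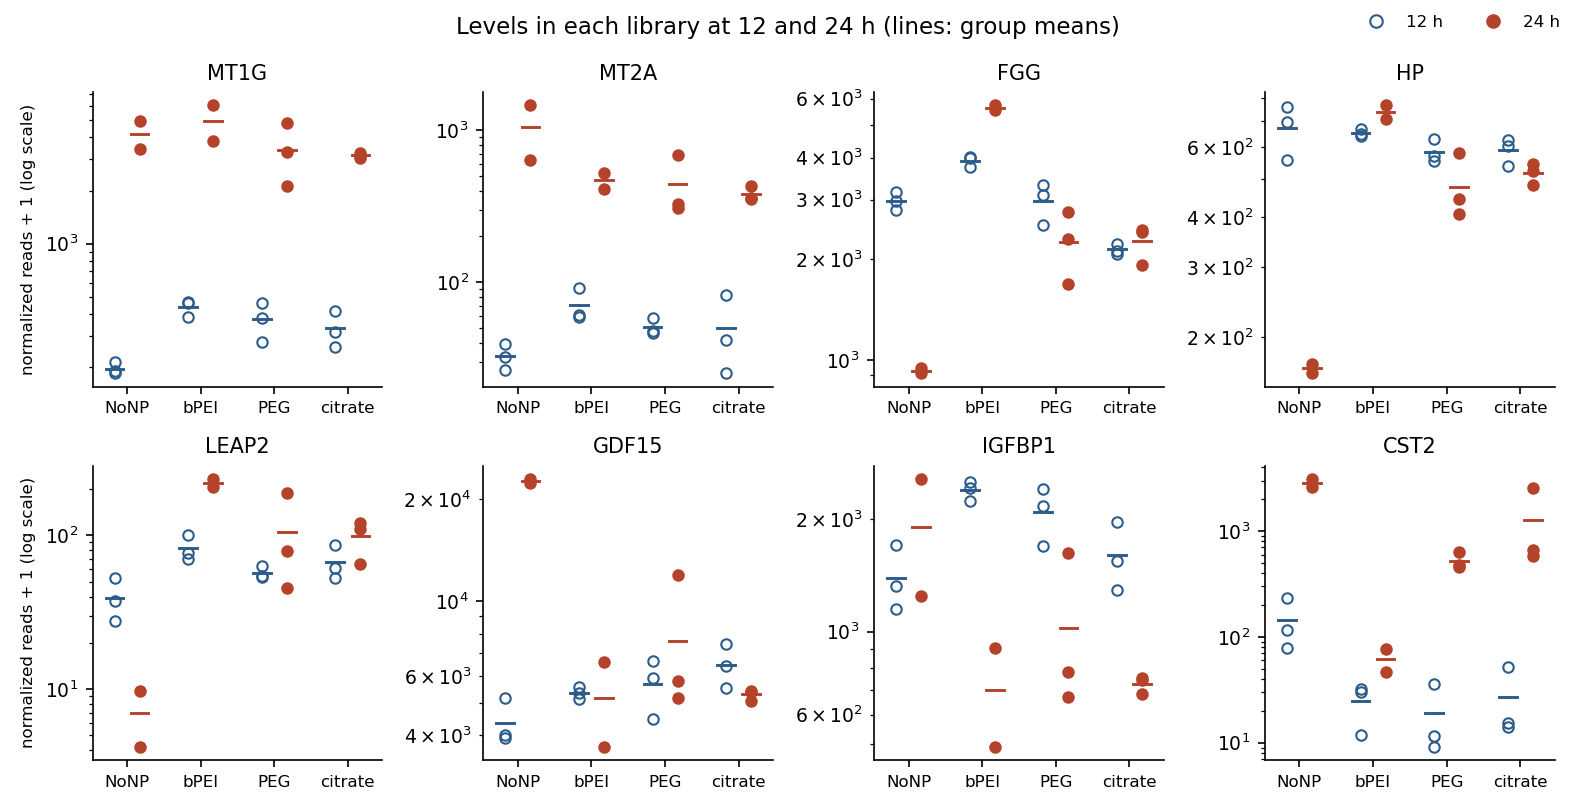
Normalized reads plus 1 (log scale) of 8 genes in each library at 12 h (open blue) and 24 h (filled red) by exposure, with bars at the group means. MT1G rose in all 4 exposures, FGG and HP at 24 h are lower in NoNP cells than in bPEI cells (HP means 166 and 735), and CST2 at 24 h is at a mean of 60.3 with bPEI and 2872 without particles.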

How the data were processed

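Lysates of HepG2 cells were assayed by TempO-Seq (labels' protocols). The authors deposited 1 table of normalized reads, a signal per gene and library made by dividing read counts by 1 size factor per library. Whole reads came back from 100% of the values within 0.01 reads, and the factors matched the median of ratios to within 2.2e-14 percent. The sources used here give no aligner, genome build or rule that assigns probes to a gene. Depth per library is in the report, and 0 columns were left unmapped.

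The differences were tested on log2(value + 1) for 9324 of 13133 genes, those whose mean over the 32 libraries reached at least 5. A limma model (3.58.1, in R 4.3.3) held 1 mean for each of the 12 groups, moderated with an intensity trend and robustly, and left 20 residual beside a median of 13.0 prior degrees of freedom. Tests were two-sided, adjustment was by Benjamini-Hochberg across every tested gene, and the threshold was 0.05. Differences between courses were contrasts of the same model.

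Named genes were the 12 largest rises and falls among calls whose libraries did not overlap and whose higher group had a mean of at least 50, up to 5 genes of smallest p in each of 42 lists, and the 10 (NoNP) or 5 (PEG, citrate) genes of smallest p between courses with a mean of at least 20 in a group. Of the listed genes the text gives those past the threshold and a few others, and some genes are not reported here. The members and lists were chosen with earlier results of these data known. Alternatives were a pseudocount of 5, a mean of at least 20 or no filter, quantile normalization, scaling to equal totals, voom weights, 1 variance weight per group, a fit of the compared groups alone, a replicate block, edgeR (4.0.16) quasi-likelihood tests on the recovered reads, leaving out single libraries or both outlying ones, and thinning to equal depth. Promoter sequences came from RefSeq (GRCh38.p14) and matched 10727 of the genes by symbol, 7751 of them tested. The scripts were tested on simulated data.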

Additional observations from a re-analysis of the deposited data

Results flagged for a closer look

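In 16 genes of the report's named genes and lists the change from 12 to 24 h differed between bPEI and NoNP cells by the limma test of the difference itself. The values below are that difference on the log2 scale, bPEI minus NoNP. FGG (2.20), HP (2.17), FGB (2.09), LEAP2 (4.01) and FGA (3.83), all placed in the acute phase list, had the more positive change with bPEI. So did the glucose and lipid genes G6PC (5.23) and APOC3 (1.60), the complement inhibitor gene CFI (1.25) and the bile acid gene BAAT (1.85). Genes of replication and mitosis did so too, with GINS2 at 3.55, NCAPG at 3.64 and HMMR at 2.07, as did EIF4E2 (2.24) and SAMD15 (4.71). The change was more negative with bPEI in GDF15 (-2.50) and IGFBP1 (-2.22). CFI and APOC3 lie outside the rule for naming genes and were chosen after their values were seen. The median change of the acute phase list was 0.20 with bPEI, 0.09 with PEG, 0.28 with citrate and -1.22 without particles.

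BAAT fell with bPEI and stood at 259, 434 and 308 at 12 h and 44.9 and 19.6 at 24 h without particles (adjusted p = 0.0471). CFI was at 962, 1105 and 1060.2 at 12 h and 1439 and 1164 at 24 h with bPEI and at 828, 997 and 915 and 460.5 and 489 without (adjusted p = 0.0198). APOC3, an inhibitor of lipoprotein lipase, was at 1581, 1565 and 1539.8 and 1294 and 1515 with bPEI and at 1659.7, 1472 and 1816 and 608 and 389 without (adjusted p = 0.029). SAMD15 was at 39.2, 63.6 and 56.4 and 16.5 and 43.3 with bPEI and at 38.3, 74.7 and 41.1 and 0 and 0 without (adjusted p = 0.0348). The call of BAAT was lost in 18 of 22 alternatives, that of SAMD15 in 14, that of APOC3 in 11 and that of CFI in 5. Each of these 4 calls was lost without bPEI 12 h A or bPEI 24 h A, and those of BAAT, SAMD15 and APOC3 also without bPEI 24 h B (adjusted p up to 0.471, 0.389, 0.325 and 0.191 over the alternatives).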

How the results depend on the processing

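The 314 genes called from 12 to 24 h with bPEI became 789 with voom weights, 1190 with 1 variance weight per group, 1635 in a fit of the compared groups alone and 766 without both outlying libraries (bPEI 6 h B and NoNP 24 h B), and 76 to 138 when 1 bPEI library was left out. The 32 genes of the difference from the NoNP course became 9, 12, 9 and 125 under those 4 settings and 13 to 810 with 1 library left out. The comparison with PEG gave 0 genes, or 1 without PEG 24 h A, so 0 to 1 with 1 library left out. The comparison with citrate gave 1 gene with a pseudocount of 5, and 0 to 1 with 1 library left out (1 without citrate 24 h B). Where a 24 h group was left with 1 library, that library is assumed to vary as the other groups do. The cause of these changes was not tested. Among the named genes no alternative was labelled a reversal of the change from 12 to 24 h with bPEI. Reversal was not checked for the differences between courses, and there the sign could change. For RPS27, not called in the main fit, the difference from the NoNP course was -0.28 there. Over the alternatives it ran from -0.84 to 0.27.

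Other settings kept the first count between 259 (no filter) and 400 (edgeR), and the second between 22 (quantile normalization) and 43 (equal library totals). Thinning to 3380945 reads, chosen after seeing the data, gave 338 and 30 genes. The replicate block gave 346 and 33 genes in place of 314 and 32, and 0 against PEG and citrate. Under it the 12 to 24 h bPEI calls of ANKRD1, HIST1H2BF and MCM2 were lost (adjusted p = 0.0521, 0.0596 and 0.0547). No other named gene lost that call. With no filter those of ANKRD1, CCL20, HIST1H2BF, LEAP2, MCM2, TIMM13, TOB1 and TPM1 were lost (adjusted p 0.0501 to 0.0623). In the difference from the NoNP course BAAT lost its call under the block (adjusted p = 0.0564). There BAAT, FGA and HMMR lost theirs with no filter (adjusted p 0.0508 to 0.0662). Deviations of same-lettered bPEI libraries had a correlation of 0.0106 (A) and 0.000516 (B). With 2 libraries at 24 h the deviations of A and B are exact opposites. These values therefore cannot show whether the letters pair libraries. Depth limits genes near 0: 3 reads over the group correspond to 0.519 (12 h) and 1.15 (24 h) normalized reads.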
